A study of Mus musculus with 12 samples.

Results

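Transcripts of the mitochondrial route by which pyruvate is burned were measured in cultured mouse hepatocytes. The set comprises 33 genes named by symbol: 13 enzymes of the tricarboxylic acid (TCA) cycle in mitochondria, 3 cytosolic counterparts, 2 malic enzymes (Me2 and Me3), 4 core proteins of the pyruvate dehydrogenase complex, 5 kinases and phosphatases that switch this complex, and 6 metabolite carriers of the inner membrane. All 33 were found among the 37991 rows of the deposited expression table. Of these, 30 passed the filter on low values (at least 1 FPKM in at least 3 of the 12 libraries) and were tested along with 11213 genes in all, while Me2, Me3 and Pdk3 did not pass.

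RNA was sequenced from primary hepatocytes of male mice, 10 weeks old, whose Nr1d1 and Nr1d2 genes (REV-ERBα and REV-ERBβ, nuclear receptors that repress transcription in the circadian clock) were both floxed. All mice carried the floxed alleles and all received an AAV8 vector 2 weeks before the cells were taken: AAV8-TBG-GFP in the controls and AAV8-TBG-Cre-GFP in the group labelled KO, with the TBG promoter restricting expression to hepatocytes. Cells of both genotypes were treated for 8 h with DMSO or with 10 µM SR9009, a compound described as a REV-ERB agonist, which gives 4 groups of 3 libraries: controls in DMSO, controls in SR9009, KO-labelled cells in DMSO and KO-labelled cells in SR9009. Where values are listed by group without names, they are in this order. The labels do not say whether the 3 libraries of a group came from separate mice, so each p-value reflects the spread among these libraries alone, which may be technical. No group received Cre without floxed alleles, so effects of Cre and of REV-ERB loss cannot be told apart.

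Values are FPKM, expression scaled to transcript length and library size, and per-library values below are in the order of replicates 1, 2 and 3. Summed FPKM ran from 538521 to 604449 per library. Read totals are not given, but the steps between low values put control SR9009 replicate 1 at 55.2% and KO-labelled DMSO replicate 1 at 63.6% of the depth of control DMSO replicate 1, with the other libraries at 76.5% to 91.8%. These depths are rough, as the fit of the steps scored only 0.105 to 0.165, where an exact fit would score 1. The whole-gene levels of Nr1d1 were 18.5 ± 0.412, 19.5 ± 0.565, 17.7 ± 0.459 and 22.1 ± 0.49 FPKM (SD, n = 3) by group, and those of Nr1d2 were 15.3 ± 1.87, 15.3 ± 1.67, 16.2 ± 0.0949 and 17.7 ± 1.58. A whole-gene value cannot show the loss of floxed exons if the rest of the transcript is still made, so this checks nothing, and the KO groups are called by their label. In the limma test described below, Nr1d1 was higher with SR9009 in KO-labelled cells (log2 change 0.30, adjusted p = 0.00472). It was also higher in KO-labelled than in control cells under SR9009 (0.17, adjusted p = 0.0429), a call lost in 17 of 22 alternative settings. Nr1d2 was not called. Hepatocyte markers summed to between 27639 and 35025 FPKM in every library, led by albumin.

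The pyruvate dehydrogenase complex turns pyruvate from glycolysis into acetyl-CoA, which citrate synthase joins to oxaloacetate to start the cycle. Pyruvate dehydrogenase kinases (Pdk) phosphorylate the E1 subunit of the complex and switch it off, and the phosphatases Pdp1 and Pdp2 remove the phosphate and switch it on. In liver this switch helps to decide, between feeding and fasting, whether pyruvate is oxidised or saved for glucose synthesis, and cycle intermediates leave mitochondria through carriers to feed glucose and fat synthesis.

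These genes were expressed strongly. The median of the 30 tested members, by mean over all libraries, was 40.3 FPKM against 9.01 FPKM for all genes tested, and 26 of the 30 lay above the latter. Pdhb was the highest at 338 FPKM, and Slc25a12 was the lowest tested at 1.41. The 33 members summed to 1927 to 2028 FPKM in control DMSO, 2059 to 2083 in control SR9009, 1870 to 1963 in KO-labelled DMSO and 2047 to 2131 in KO-labelled SR9009. The sums of the SR9009 libraries therefore lay above those of the DMSO libraries in both genotypes. As a share of all FPKM the control groups overlapped, at 0.338% to 0.352% without SR9009 and 0.345% to 0.367% with it, while the KO-labelled groups did not, at 0.347% to 0.357% and 0.373% to 0.385%.

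**Figure D1:**
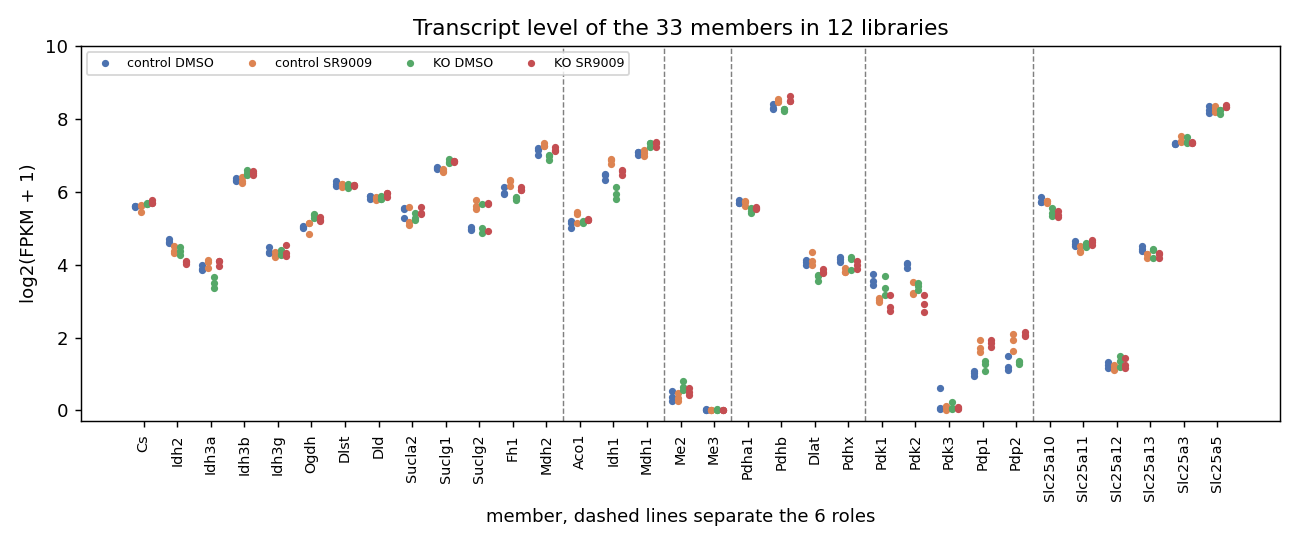
Level of each of the 33 members as log2(FPKM + 1), with 1 point per library (3 libraries in each of 4 groups, by colour) and dashed lines between the 6 roles. Most members lie in a narrow band within a gene, Pdhb is the highest, and Me3 and Pdk3 lie near 0.

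Each difference was tested with limma on log2(FPKM + 1), with Benjamini-Hochberg adjustment over all 11213 genes and a threshold of 0.05. Changes are log2 differences on that scale, which understates the change of genes near 1 FPKM, and folds are ratios of mean FPKM. The comparisons share groups and so are not independent of each other. SR9009 against DMSO in control cells raised 4 and lowered 2 of the 30 members, that is 20% against 8.24% of all genes tested, of which 3.69% rose and 4.55% fell. The same treatment in KO-labelled cells raised 6 and lowered 3, or 30% against 9.87% of all genes (5.32% rose and 4.56% fell). In DMSO, KO-labelled cells had 4 members higher and 8 lower than controls, or 40% against 20% of all genes (11.7% higher and 8.32% lower). Under SR9009 the genotypes differed in 10 members, 4 higher and 6 lower, or 33.3% against 20.4% (12.9% higher and 7.43% lower). The shares of all genes were not matched to the members for level, where the medians were 40.3 FPKM for members and 9.01 for all genes tested. The members were also chosen with earlier results of these data known, so these shares are a description.

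In all, 17 tested members were called in at least 1 of these 4 comparisons and 13 in none. The share of all genes called in at least 1 of the 4 was not computed, so this count has no background to be read against. Median changes were small: -0.02 for the members and -0.02 for all genes with SR9009 in controls, 0.06 and 0.00 with SR9009 in KO-labelled cells, -0.05 and 0.04 for genotype in DMSO, and 0.03 and 0.06 for genotype under SR9009. Members with groups that did not overlap numbered 15 of 30 for SR9009 in controls (25% of all genes), 12 for SR9009 in KO-labelled cells (32.3%), 14 for genotype in DMSO (41.2%) and 15 for genotype under SR9009 (34.9%). In bulk RNA, fewer cells of a type and less RNA per cell cannot be told apart.

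The difference between genotypes in their response to SR9009 was tested as an interaction, and 0 of the 30 members passed, against 3 of all genes (0.0268%). At an unadjusted p under 0.05 there were 2 members, Idh3a and Slc25a11, and 787 genes in all. The 6 members called for SR9009 in controls were called in the same direction in KO-labelled cells, and 3 more (Idh2, Idh3a and Pdhb) passed in KO-labelled cells only, which does not show that their response differed.

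**Figure D2:**
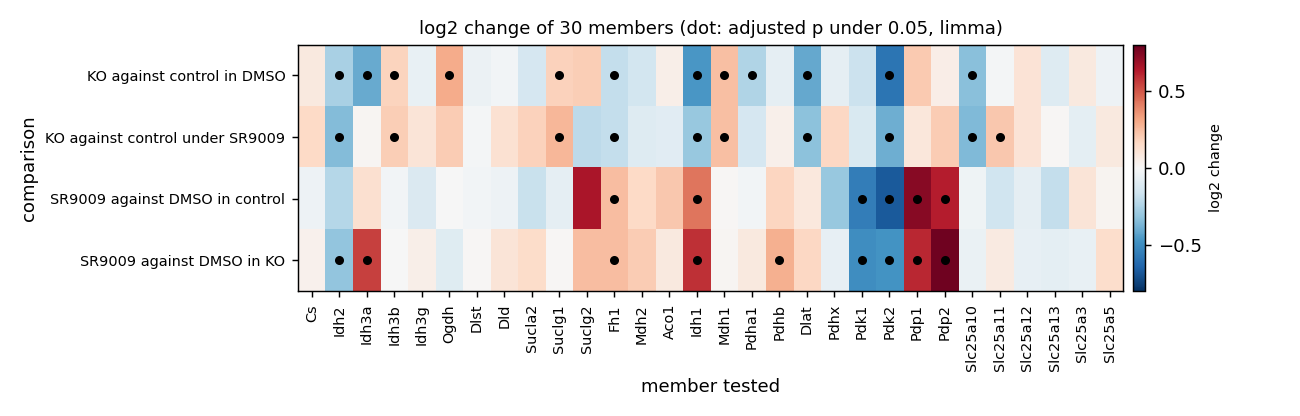
Colour gives the log2 change on the log2(FPKM + 1) scale of the 30 tested members (columns) in 4 comparisons (rows), and a dot marks an adjusted p under 0.05 by limma. The dots of the lower rows gather on Pdk1, Pdk2, Pdp1, Pdp2, Idh1 and Fh1. Those of the upper rows lie on Idh1, Idh2, Idh3a, Idh3b, Ogdh, Suclg1, Fh1, Mdh1, Pdha1, Dlat, Pdk2, Slc25a10 and Slc25a11.

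Among the members, all 4 tested regulators of the pyruvate dehydrogenase complex changed with SR9009 in both genotypes. The kinases Pdk1 and Pdk2 fell and the phosphatases Pdp1 and Pdp2 rose. Pdk2 (ENSMUSG00000038967, chromosome 11, 94887572 to 94902668, minus strand, mm9), a kinase abundant in liver, measured 15.4, 14.1 and 15.2 FPKM in control DMSO and 8.4, 10.6 and 8.11 in control SR9009. In KO-labelled cells it measured 8.87, 9.6 and 10.4 in DMSO and 5.5, 6.63 and 7.92 with SR9009. Every SR9009 library lay below every DMSO library of its genotype, and the KO-labelled DMSO libraries lay at the level of control SR9009.

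Pdk2 was thus 1.65-fold lower with SR9009 in controls (log2 change -0.67, SE 0.12, adjusted p = 0.00524) and 1.44-fold lower in KO-labelled cells (-0.48, SE 0.12, adjusted p = 0.0276). It was also 1.55-fold lower in KO-labelled than in control cells in DMSO (-0.58, SE 0.12, adjusted p = 0.00486) and 1.35-fold lower under SR9009 (-0.39, SE 0.12, adjusted p = 0.041). The difference of the SR9009 responses was 0.20, with a 95% interval of -0.18 to 0.57. The call in KO-labelled cells was lost without KO-labelled DMSO replicate 2 or 3 (adjusted p = 0.0786 to 0.101) or KO-labelled SR9009 replicate 1 or 2 (0.0771 to 0.117). That between genotypes under SR9009 was lost without control SR9009 replicate 2 (0.134), KO-labelled SR9009 replicate 1 or 2 (0.0961 to 0.148), KO-labelled DMSO replicate 2 (0.0561) or any control DMSO library (0.0528 to 0.0564).

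Pdk1 (ENSMUSG00000006494, chromosome 2, 71711281 to 71741915, plus strand, mm9), the kinase known for its induction under low oxygen, measured 12.5, 10.8 and 9.8 FPKM in control DMSO and 7.51, 7.11 and 6.89 in control SR9009. In KO-labelled cells it measured 11.9, 7.95 and 9.3 in DMSO and 5.59, 6.17 and 7.97 with SR9009. The control groups were apart, while the KO-labelled groups touched, since the highest SR9009 library and the lowest DMSO library were nearly equal. The log2 change was -0.55 (SE 0.14, adjusted p = 0.0354) in controls, 1.54-fold lower, and -0.50 (SE 0.14, adjusted p = 0.0485) in KO-labelled cells, 1.48-fold lower, and the responses differed by 0.06 (95% interval -0.39 to 0.50). Both calls stood close to the threshold. The call in controls was lost without any 1 library of control DMSO (adjusted p = 0.0517 to 0.138) or of control SR9009 (0.0659 to 0.0775), without KO-labelled DMSO replicate 3 (0.0516) or without KO-labelled SR9009 replicate 2 (0.0515). That in KO-labelled cells was lost without KO-labelled DMSO replicate 1 or 3 (0.101 to 0.171), KO-labelled SR9009 replicate 1 or 2 (0.145 to 0.184), any control DMSO library (0.0537 to 0.0675) or control SR9009 replicate 1 or 2 (0.0544 to 0.0643). Pdk3 was listed at no more than 0.53 FPKM in any library.

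The phosphatases moved the other way. Pdp1 (ENSMUSG00000049225, chromosome 4, 11885331 to 11893599, minus strand, mm9), the calcium-stimulated catalytic subunit, measured 1.05, 1.12 and 0.936 FPKM in control DMSO and 2.06, 2.81 and 2.26 in control SR9009. In KO-labelled cells it measured 1.41, 1.12 and 1.54 in DMSO and 2.32, 2.58 and 2.85 with SR9009. All 6 SR9009 libraries lay above all 6 DMSO libraries, a rise of 2.3-fold in controls (log2 change 0.73, SE 0.12, adjusted p = 0.0025) and 1.9-fold in KO-labelled cells (0.61, SE 0.12, adjusted p = 0.00609). The responses differed by -0.12 (95% interval -0.48 to 0.24).

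Pdp2 (ENSMUSG00000048371, chromosome 8, 107115368 to 107120736, plus strand, mm9), the other catalytic subunit, measured 1.79, 1.3 and 1.16 FPKM in control DMSO and 3.3, 2.81 and 2.11 in control SR9009. Its values in KO-labelled cells were 1.56, 1.41 and 1.51 in DMSO and 3.23, 3.14 and 3.43 with SR9009. Again no DMSO library reached an SR9009 library, and Pdp2 rose 1.93-fold in controls (log2 change 0.63, SE 0.13, adjusted p = 0.012) and 2.19-fold in KO-labelled cells (0.78, SE 0.13, adjusted p = 0.00299), with responses that differed by 0.15 (95% interval -0.25 to 0.55). The call in controls was lost without control DMSO replicate 3 (adjusted p = 0.0569). It was also lost with only the groups compared in the fit (0.0863) and without the 2 shallowest libraries (0.0558). Neither phosphatase passed the test between genotypes.

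Set against each other, the 2 kinases and 2 phosphatases gave a ratio of summed FPKM, (Pdk1 + Pdk2) over (Pdp1 + Pdp2), of 10.7 ± 1.11 (SD, n = 3) in control DMSO, 3.18 ± 0.23 in control SR9009, 6.80 ± 0.29 in KO-labelled DMSO and 2.26 ± 0.27 in KO-labelled SR9009. The lowest DMSO library stood at 6.46 and the highest SR9009 library at 3.43. This ratio was formed from genes already seen to change and is given as a description with no test. In DMSO both phosphatases lay near the filter of 1 FPKM, so the size of the ratio rests on low values. Pdk4, the kinase induced by fasting, is not among the 33 members and went against its relatives. It rose in all 4 comparisons, from 4.19, 4.59 and 5.08 FPKM in control DMSO to 7, 7.38 and 5.92 in control SR9009, and from 6.16, 7.32 and 6.42 in KO-labelled DMSO to 9.19, 9.78 and 8.99 in KO-labelled SR9009. Its log2 changes were 0.46 and 0.44 with SR9009 (SE 0.10, adjusted p = 0.0127 and 0.0143) and 0.44 and 0.41 for genotype (adjusted p = 0.00713 in DMSO and 0.00976 under SR9009). With Pdk4 added to the kinases the mean ratios became 12.6, 4.50, 9.15 and 3.85 in the same order of groups. Pdpr, a further regulator outside the members, was tested and passed no comparison. The SR9009 calls of Pdk4 were lost without control DMSO replicate 1 in controls (adjusted p = 0.0600) and without KO-labelled DMSO replicate 1 or 3 (0.0547 to 0.0565) or KO-labelled SR9009 replicate 2 (0.0639) in KO-labelled cells. They were also lost with only the groups compared in the fit in controls (0.0764) and without the 2 shallowest libraries in KO-labelled cells (0.0604).

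**Figure D3:**
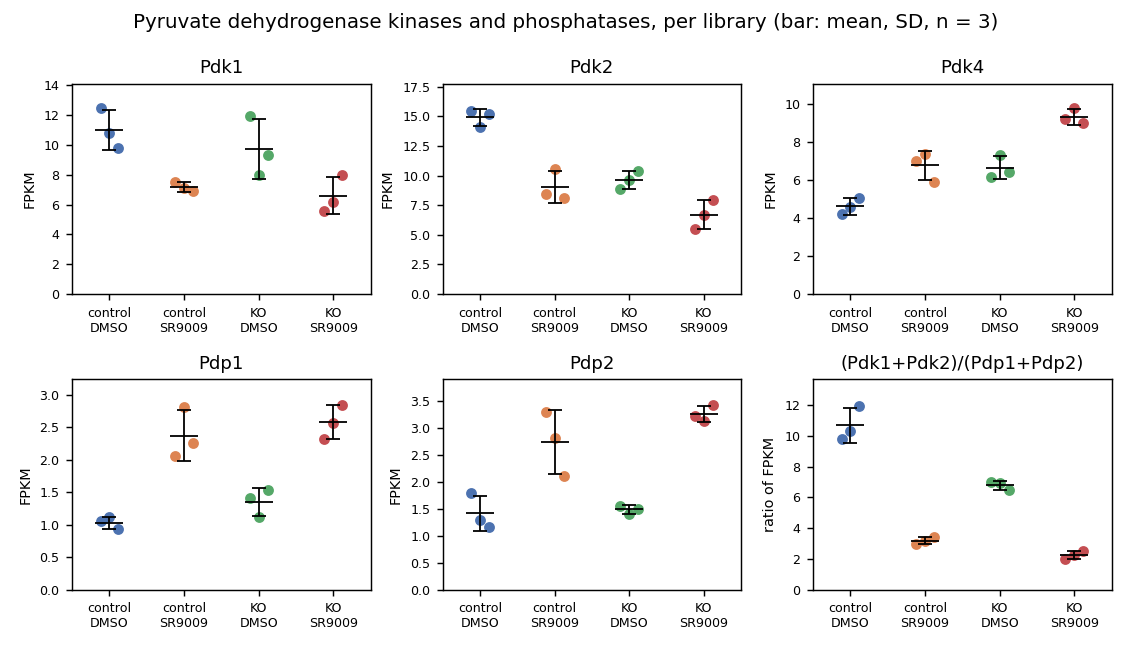
FPKM of the kinases Pdk1, Pdk2 and Pdk4 and the phosphatases Pdp1 and Pdp2, and the ratio of Pdk1 plus Pdk2 to Pdp1 plus Pdp2, with 1 point per library and a bar at the mean ± SD (n = 3). Pdk1 and Pdk2 were lower and Pdk4, Pdp1 and Pdp2 higher with SR9009, and the ratio had a mean of 10.7 in control DMSO and 2.26 in KO-labelled SR9009.

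Of the 6 members called for SR9009 in both genotypes, the 5 with an entry in the promoter table (all but Pdp1) are shown. They were chosen by these calls alone, which do not mark them as targets of REV-ERBs. The sequences are the 250 bases before an annotated start, 5′ to 3′ on the gene's strand, from RefSeq for GRCm38.p6, and 30 of the 33 members had an entry (38 starts). Capitals mark matches to an E-box (CACGTG, bound by the clock activators CLOCK and BMAL1 among other factors), a GC box (GGGCGG or its reverse complement, the binding site of the Sp1 family) or a nuclear receptor core site (AGGTCA or its reverse complement, the core of the element that REV-ERBs bind). For genes with 2 listed starts the upstream one is given.
Pdk1, chr2:71872974-71873223, plus strand: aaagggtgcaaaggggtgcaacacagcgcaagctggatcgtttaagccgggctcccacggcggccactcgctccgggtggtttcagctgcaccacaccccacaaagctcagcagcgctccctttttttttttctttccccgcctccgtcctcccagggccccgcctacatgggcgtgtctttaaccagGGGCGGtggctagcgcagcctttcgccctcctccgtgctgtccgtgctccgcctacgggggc
Pdk2, chr11:95041372-95041621, minus strand: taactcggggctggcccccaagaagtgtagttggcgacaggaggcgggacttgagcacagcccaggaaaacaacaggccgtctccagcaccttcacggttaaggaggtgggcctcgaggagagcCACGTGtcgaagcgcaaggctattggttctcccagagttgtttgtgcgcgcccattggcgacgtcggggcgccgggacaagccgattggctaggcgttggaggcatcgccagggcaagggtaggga
Pdp2, chr8:104591222-104591471, plus strand: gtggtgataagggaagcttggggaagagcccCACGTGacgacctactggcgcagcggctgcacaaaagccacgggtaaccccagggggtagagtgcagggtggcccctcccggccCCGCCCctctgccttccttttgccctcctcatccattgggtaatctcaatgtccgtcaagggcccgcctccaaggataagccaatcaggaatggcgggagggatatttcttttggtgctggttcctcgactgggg
Idh1, chr1:65186480-65186729, minus strand: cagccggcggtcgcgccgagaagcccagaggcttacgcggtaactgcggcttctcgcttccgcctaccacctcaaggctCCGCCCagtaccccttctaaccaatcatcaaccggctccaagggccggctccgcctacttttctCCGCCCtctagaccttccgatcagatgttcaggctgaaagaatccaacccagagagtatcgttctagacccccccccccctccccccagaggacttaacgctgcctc
Fh1, chr1:175625636-175625885, minus strand: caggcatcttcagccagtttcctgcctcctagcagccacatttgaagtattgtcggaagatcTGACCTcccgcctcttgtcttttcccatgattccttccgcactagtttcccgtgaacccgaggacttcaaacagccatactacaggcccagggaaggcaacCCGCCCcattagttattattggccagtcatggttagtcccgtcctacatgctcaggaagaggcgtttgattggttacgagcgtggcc

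Pdk2 and Pdp2, which moved in opposite directions, each held 1 E-box, starting 126 and 219 bases before the start, and Pdk1, Idh1 and Fh1 held none in these windows. GC boxes started 62 bases before the start in Pdk1, 135 in Pdp2, 171 and 107 in Idh1, and 87 in Fh1. Fh1 also held a core site AGGTCA, starting 188 bases before the start. Both strands were searched. Some genes have several listed starts with overlapping windows that hold the same site (Ogdh has 6), so each gene was counted once if any of its windows held a match. An E-box lay in 4 of the 30 member genes (Ogdh, Pdk2, Pdp2 and Slc25a13; 13.3%) and in 6.86% of the 27025 genes in the table, and a GC box in 20 (66.7%) and 35.4%. The RORE, the full element bound by REV-ERBs and RORs, was in 0 of 30 and in 0.396% of all genes. An element so rare in these windows would be missing from most sets of 30 genes, so the 0 says nothing about the members. The core site AGGTCA within the RORE was in 2 (Fh1 and Sucla2, 6.67%) and in 15.8% of all genes. The cyclic AMP element TGACGTCA was in 2 (Mdh2 and Ogdh; 6.67%) and in 1.77% of all genes, and the antioxidant element TGACNNNGC in 5 (16.7%) and in 11.5%. These are matches of letters, and no binding was measured.

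With SR9009, transcripts of the 4 core proteins of the pyruvate dehydrogenase complex changed less than those of the 4 tested regulators among the members. In controls 0 of the 4 were called (8.24% of all genes), and in KO-labelled cells 1 was higher (Pdhb, against 9.87% of all genes called). Between genotypes in DMSO, 2 of the 4 were lower in KO-labelled cells (Pdha1 and Dlat) and 0 higher, where 20% of all genes were called. Of the 4 tested regulators among the members, 1 was lower in that comparison. Dlat, the E2 acetyltransferase, measured 14.7, 15.9 and 16.6 FPKM in control DMSO and 11.8, 10.8 and 12.2 in KO-labelled DMSO, a 1.36-fold lower mean (log2 change -0.41, SE 0.09, adjusted p = 0.00713). Under SR9009 it measured 16, 19.4 and 15 in controls and 13, 12.7 and 13.7 in KO-labelled cells (-0.33, SE 0.09, adjusted p = 0.0243). All KO-labelled libraries lay below all control libraries. The second call was lost without control SR9009 replicate 2 (adjusted p = 0.0766) or KO-labelled SR9009 replicate 1 or 2 (0.0645 to 0.0822).

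Pdha1, the E1 subunit that carries the phosphorylation sites, measured 50.4, 53.5 and 50.7 FPKM in control DMSO and 41.9, 45.6 and 42.9 in KO-labelled DMSO, 1.19-fold lower (log2 change -0.24, SE 0.06, adjusted p = 0.01). With SR9009 it measured 51.2, 53.1 and 47.7 in controls and 46.5, 45.1 and 46.4 in KO-labelled cells, apart by less and not past the threshold. Its partner Pdhb measured 306, 340 and 314 FPKM in control DMSO, 351, 358 and 370 in control SR9009, 309, 295 and 308 in KO-labelled DMSO and 394, 360 and 356 in KO-labelled SR9009. All 6 SR9009 libraries of Pdhb lay above all 6 DMSO libraries, and the 1.22-fold rise passed in KO-labelled cells (0.28, SE 0.06, adjusted p = 0.00787) but not in controls. These partners form one tetramer, and the FPKM of Pdhb was 6.08 to 8.47 times that of Pdha1 over the libraries. Pdhx, which tethers the E3 enzyme, measured 16.6 ± 0.81, 13.3 ± 0.519, 15.8 ± 2.21 and 15.0 ± 1.22 FPKM (SD, n = 3) by group, with no call.

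**Figure D4:**
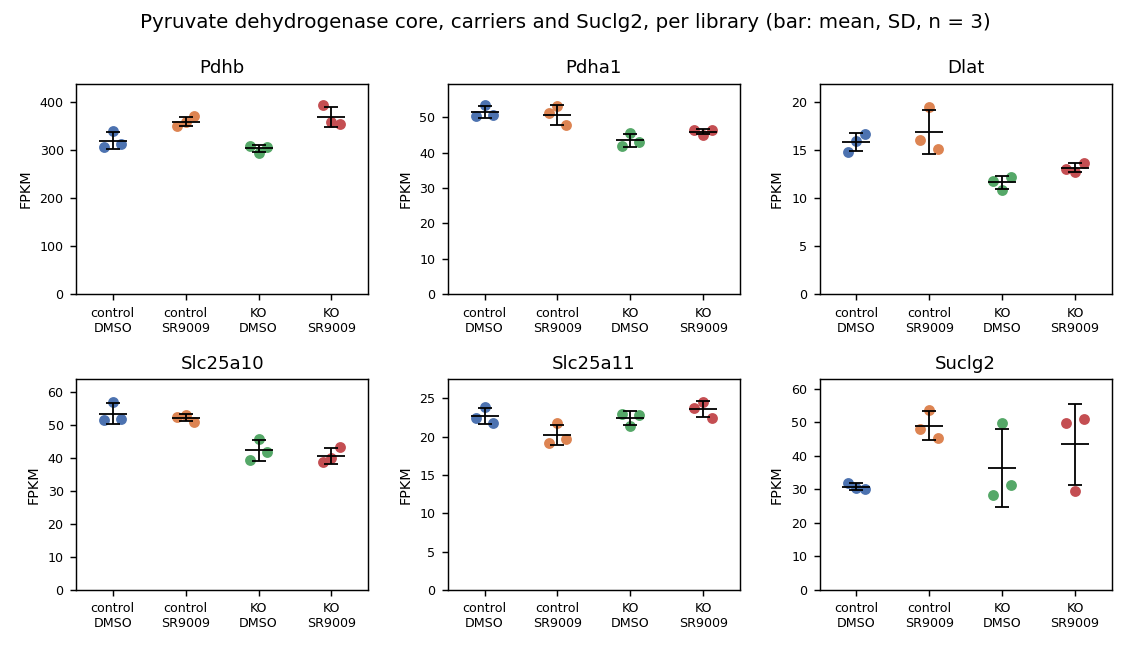
FPKM per library of the pyruvate dehydrogenase proteins Pdhb, Pdha1 and Dlat, the carriers Slc25a10 and Slc25a11, and the succinyl-CoA ligase subunit Suclg2, with a bar at the mean ± SD (n = 3). Dlat and Slc25a10 were lower in KO-labelled cells, and Suclg2 fell into 2 levels that cut across the KO-labelled groups.

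Of the isocitrate dehydrogenases, Idh1, Idh2, Idh3a and Idh3b were called in at least 1 comparison. Idh1 (ENSMUSG00000025950, chromosome 1, 65205190 to 65233053, minus strand, mm9), the cytosolic enzyme that makes NADPH, measured 78.5, 86.6 and 88.8 FPKM in control DMSO, 118, 116 and 108 in control SR9009, 54.6, 69.5 and 60 in KO-labelled DMSO and 93.2, 87.7 and 95.4 in KO-labelled SR9009. It was lower in KO-labelled cells and higher with SR9009, with no overlap in any of the 4 comparisons. SR9009 raised it 1.35-fold in controls (log2 change 0.43, SE 0.08, adjusted p = 0.00826) and 1.5-fold in KO-labelled cells (0.58, SE 0.08, adjusted p = 0.000944). The KO-labelled mean was 1.38-fold lower in DMSO (-0.46, SE 0.08, adjusted p = 0.00186) and 1.24-fold lower under SR9009 (-0.30, SE 0.08, adjusted p = 0.0213). The last call was lost without control SR9009 replicate 1 or 2 (adjusted p = 0.0574 to 0.0624) or KO-labelled SR9009 replicate 2 (0.0837). The responses to SR9009 differed by 0.16 (95% interval -0.10 to 0.41).

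Idh2, the mitochondrial NADP enzyme, moved the other way with SR9009. It measured 25.3, 23.5 and 23 FPKM in control DMSO, 19.1, 21.9 and 19.8 in control SR9009, 18.3, 19.8 and 21.5 in KO-labelled DMSO and 15.9, 15.3 and 16 in KO-labelled SR9009. It fell with SR9009 in KO-labelled cells (log2 change -0.31, SE 0.07, adjusted p = 0.0194) and was lower in KO-labelled than in control cells in DMSO (-0.26, SE 0.07, adjusted p = 0.0289) and under SR9009 (-0.34, SE 0.07, adjusted p = 0.00584). The first call was lost without KO-labelled DMSO replicate 2 or 3 or KO-labelled SR9009 replicate 1 or 2 (adjusted p = 0.0595 to 0.0821). The second was lost without any control DMSO library (up to 0.110) or KO-labelled DMSO replicate 1 or 2 (up to 0.115). The mean ratio of Idh1 to Idh2 was 3.55 and 5.64 in control DMSO and SR9009, and 3.10 and 5.85 in KO-labelled DMSO and SR9009, a description of chosen genes with no test.

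Idh3a, the catalytic subunit of the NAD-dependent enzyme of the cycle, measured 13.4, 14.8 and 13.8 FPKM in control DMSO and 13.9, 16.5 and 15.8 in control SR9009. In KO-labelled cells it measured 9.26, 10.3 and 11.5 in DMSO and 16.1, 14.5 and 16.2 with SR9009. Only the KO-labelled DMSO libraries stood apart. They were 1.35-fold below control DMSO (log2 change -0.40, SE 0.09, adjusted p = 0.00779), and SR9009 raised Idh3a 1.5-fold in KO-labelled cells (0.55, SE 0.09, adjusted p = 0.00274). In the interaction Idh3a had the smallest p of the members, an unadjusted p of 0.00664 by limma, with a difference of 0.42 (95% interval 0.14 to 0.70), but its adjusted p was 0.599, so the difference between genotypes did not pass.

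Idh3b, a regulatory subunit of the same enzyme, was higher in KO-labelled cells: 79.6, 82.7 and 77.6 FPKM in control DMSO against 87, 94.9 and 89.9 (log2 change 0.18, SE 0.06, adjusted p = 0.0434), and 83.5, 75.1 and 77.8 in control SR9009 against 93.2, 87.6 and 90.8 (0.20, SE 0.06, adjusted p = 0.0255). No control library reached a KO-labelled one. Leaving out any 1 library of control DMSO, KO-labelled DMSO or KO-labelled SR9009 ended the first call (adjusted p up to 0.152), and leaving out control SR9009 replicate 2 or KO-labelled SR9009 replicate 1 or 3 ended the second (0.0736 to 0.0865). Idh3g, the third subunit, had group means of 18.2 to 19.9 FPKM and no call. The mean ratio of Idh3b to Idh3a was 5.72, 5.16, 8.79 and 5.82 by group.

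Of the other cycle enzymes, Ogdh and Suclg1 were higher in KO-labelled cells and Fh1 was lower. Ogdh, the E1 enzyme of the 2-oxoglutarate dehydrogenase complex, measured 32.6, 31.2 and 32 FPKM in control DMSO and 40.6, 37.7 and 40.1 in KO-labelled DMSO, 1.24-fold higher (log2 change 0.30, SE 0.08, adjusted p = 0.0178). Its values with SR9009 were 34.2, 34.2 and 27.7 in controls and 36.1, 35.9 and 38.6 in KO-labelled cells, with no call. The call in DMSO was lost without control DMSO replicate 2 or 3 or KO-labelled DMSO replicate 1 or 3 (adjusted p = 0.0504 to 0.0627). Suclg1, the shared alpha subunit of succinyl-CoA ligase, measured 98.8, 102 and 97.3 FPKM in control DMSO and 111, 110 and 118 in KO-labelled DMSO (0.18, SE 0.05, adjusted p = 0.0166). With SR9009 it measured 92.1, 94.4 and 96.9 in controls and 114, 112 and 114 in KO-labelled cells (0.26, SE 0.05, adjusted p = 0.00176). The groups did not overlap, and the call in DMSO was lost without control DMSO replicate 1 or 3 (0.0524 to 0.0646) or KO-labelled DMSO replicate 3 (0.0733).

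Fh1, fumarase, measured 61.5, 68.6 and 60.6 FPKM in control DMSO, 78.6, 70.8 and 77 in control SR9009, 54.2, 56.8 and 55.7 in KO-labelled DMSO and 68.7, 64.5 and 64.9 in KO-labelled SR9009. Its log2 change with SR9009 was 0.24 in controls (SE 0.06, adjusted p = 0.0308) and 0.25 in KO-labelled cells (SE 0.06, adjusted p = 0.0254), and KO-labelled cells were lower by the same factor, 1.14-fold, in DMSO (-0.19, adjusted p = 0.0481) and under SR9009 (-0.19, adjusted p = 0.048). All 4 calls were close to the threshold, and leaving out single libraries ended each of them. For SR9009 in controls these were control DMSO replicates 1 and 3 (adjusted p up to 0.118) and control SR9009 replicates 1 and 3 (up to 0.0946), and for SR9009 in KO-labelled cells any KO-labelled library (up to 0.109). For genotype in DMSO they were all but the control SR9009 libraries (up to 0.192), and under SR9009 any KO-labelled library and replicates 1 and 3 of both control groups (up to 0.143). The model of Fh1 overlaps that of Kmo on the opposite strand over 5255 bases, and whether counting used strand is not stated. Kmo had means of 34.6, 29.3, 35.0 and 33.4 FPKM by group, so reads from the overlap cannot be assigned with certainty.

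Suclg2, the GTP-forming beta subunit of succinyl-CoA ligase, had a pattern of its own. It measured 31.9, 30.4 and 30 FPKM in control DMSO and 48.1, 53.6 and 45.4 in control SR9009, but 28.3, 49.8 and 31.3 in KO-labelled DMSO and 49.9, 29.4 and 50.9 in KO-labelled SR9009. The 12 values fell into 6 between 28.3 and 31.9 and 6 between 45.4 and 53.6, with none in between, and each KO-labelled group held libraries of both levels. No comparison passed, and the change with SR9009 in controls, where the groups did not overlap, was 0.65 with an adjusted p of 0.1. The ATP-forming partner Sucla2 had group means of 38.1 to 43.0 FPKM and no call.

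The remaining cycle enzymes passed no comparison. Mdh2, the mitochondrial malate dehydrogenase and the most abundant cycle enzyme, measured 140, 145 and 127 FPKM in control DMSO, 151, 150 and 159 in control SR9009, 128, 126 and 117 in KO-labelled DMSO and 138, 149 and 140 in KO-labelled SR9009. The SR9009 libraries lay above the DMSO libraries of the same genotype without a call. Cs, citrate synthase, ranged over group means of 46.2 to 51.5 FPKM, Dlst, the E2 enzyme of the 2-oxoglutarate complex, over 70.7 to 73.2, and Dld, the E3 enzyme of both complexes, over 55.3 to 60.2.

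**Figure D5:**
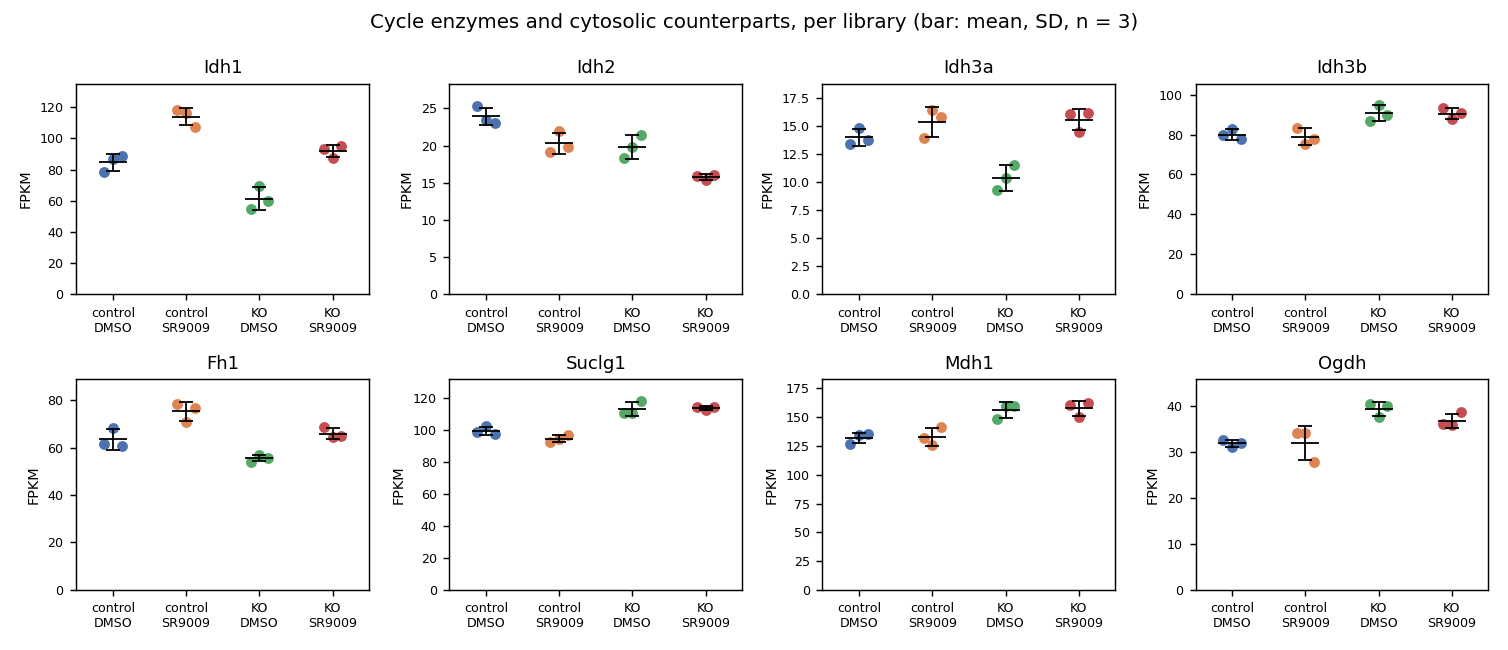
FPKM per library of 8 enzymes of the cycle and its cytosolic branch, with a bar at the mean ± SD (n = 3). Idh1 and Fh1 were higher with SR9009 and lower in KO-labelled cells, Idh3a was lowest in KO-labelled DMSO, and Idh3b, Suclg1 and Mdh1 were higher in KO-labelled cells.

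Among the cytosolic counterparts, Mdh1, the malate dehydrogenase of the malate-aspartate shuttle, was higher in KO-labelled cells. It measured 127, 134 and 135 FPKM in control DMSO against 148, 160 and 160 in KO-labelled DMSO (log2 change 0.24, SE 0.06, adjusted p = 0.0128), and 132, 126 and 142 in control SR9009 against 160, 150 and 162 (0.24, SE 0.06, adjusted p = 0.011). The call in DMSO was lost without control DMSO replicate 1 (adjusted p = 0.0551) or KO-labelled DMSO replicate 2 or 3 (up to 0.0512). That under SR9009 was lost with only the groups compared in the fit (0.0560). The mean ratio of Mdh2 to Mdh1 was 1.04, 1.15, 0.79 and 0.91 by group. Aco1, the cytosolic aconitase that doubles as an iron sensor, had group means of 33.7 to 39.4 FPKM and no call. The malic enzyme Me2 was listed at 0.186, 0.449 and 0.292 FPKM in control DMSO, 0.266, 0.385 and 0.192 in control SR9009, 0.486, 0.741 and 0.549 in KO-labelled DMSO and 0.424, 0.522 and 0.335 in KO-labelled SR9009, and Me3 was listed at 0 in 10 of the 12 libraries.

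Of the 6 carriers, 1 was lower in KO-labelled cells in both treatments, and 1 other was higher under SR9009 only. Of all genes, 20% were called for genotype in DMSO and 20.4% under SR9009. None of the carriers was called for SR9009, where 8.24% of all genes were called in controls and 9.87% in KO-labelled cells. Slc25a10, the dicarboxylate carrier that exchanges malate or succinate for phosphate, measured 51.5, 57.1 and 51.8 FPKM in control DMSO and 39.4, 45.6 and 41.9 in KO-labelled DMSO, 1.26-fold lower (log2 change -0.33, SE 0.07, adjusted p = 0.00431). With SR9009 it measured 52.5, 53.1 and 51 in controls and 38.7, 40 and 43.4 in KO-labelled cells, 1.28-fold lower (-0.35, SE 0.07, adjusted p = 0.00273). The genotypes did not overlap in either treatment. Slc25a11, the oxoglutarate-malate carrier, was higher in KO-labelled cells under SR9009 at 23.6 ± 1.09 FPKM against 20.2 ± 1.32 (SD, n = 3; 0.21, SE 0.07, adjusted p = 0.0412), while in DMSO the means were 22.4 and 22.7. This call was lost without control SR9009 replicate 1 or 3 or KO-labelled SR9009 replicate 1 or 2 (adjusted p = 0.0841 to 0.144) and without replicate 1 or 3 of either DMSO group (0.0502 to 0.0568).

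The abundant carriers passed no comparison. Slc25a5, the adenine nucleotide translocase that exports ATP, measured 300, 327 and 285 FPKM in control DMSO, 290, 307 and 326 in control SR9009, 282, 300 and 302 in KO-labelled DMSO and 333, 321 and 320 in KO-labelled SR9009, so that the control groups overlapped and the KO-labelled groups did not (log2 change with SR9009 0.14, adjusted p = 0.201). Processed copies of such genes in the genome can share reads with them, and how the counting treated these is not stated. Slc25a3, the phosphate carrier, had group means of 159 to 171 FPKM, and its libraries in control SR9009 (164 to 183) lay above those in control DMSO (157 to 161) and in KO-labelled SR9009 (160 to 163), with adjusted p = 0.354 and 0.383. The aspartate-glutamate carriers of the malate-aspartate shuttle were led by the liver form Slc25a13 (citrin), at 18.1 to 20.8 FPKM, over Slc25a12 (aralar), at 1.26 to 1.56, and neither was called.

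The choice of scaling bears on the members that were higher in KO-labelled cells. When each library was centred on its median gene, the split of members between higher and lower moved from 4 and 8 to 1 and 8 in DMSO, and from 4 and 6 to 1 and 7 under SR9009. Ogdh in DMSO and Suclg1 under SR9009 were the higher calls that stayed, and Idh3b, Mdh1, Suclg1 in DMSO and Slc25a11 lost theirs (adjusted p = 0.104 to 0.176). Over all genes the same centring moved the split from 1307 higher and 933 lower to 1047 and 1120 in DMSO, and from 1450 and 833 to 993 and 1114 under SR9009.

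The wider pathway was read from 29 further genes, of which 27 were tested (Ogdhl and Slc25a4 did not pass the filter). SR9009 raised 2 and lowered 2 of the 27 in controls, or 14.8% against 8.24% of all genes, and raised 3 and lowered 1 in KO-labelled cells, or 14.8% against 9.87%. KO-labelled cells had 5 higher and 2 lower in DMSO, or 25.9% against 20%, and 8 higher and 1 lower under SR9009, or 33.3% against 20.4%, and 0 passed the interaction. Slc13a5, the plasma-membrane citrate importer, moved the most: 30.2 ± 2.82 FPKM in control DMSO, 60.8 ± 8.2 in control SR9009, 3.44 ± 1.02 in KO-labelled DMSO and 11.7 ± 1.12 in KO-labelled SR9009 (SD, n = 3). It was 8.77-fold lower in KO-labelled cells in DMSO (log2 change -2.83, SE 0.15, adjusted p = 7.58e-08), and SR9009 raised it 2.02-fold in controls and 3.39-fold in KO-labelled cells (adjusted p = 0.00192 and 6.53e-05).

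Pcx, pyruvate carboxylase, which makes oxaloacetate from pyruvate for glucose synthesis, was higher in KO-labelled than in control cells in DMSO, at 179 ± 5.72 against 124 ± 3.52 FPKM (SD, n = 3; log2 change 0.53, SE 0.05, adjusted p = 1.16e-05). With SR9009 it fell to 135 ± 2.99 in KO-labelled cells (-0.40, adjusted p = 0.000353) and stood at 116 ± 4.65 in controls, with a difference of genotype of 0.22 under SR9009 (adjusted p = 0.00744, and 0.0515 after median centring). Acly, which splits exported citrate for fat synthesis, fell with SR9009 in controls from 250 ± 6.39 to 172 ± 8.03 FPKM (-0.54, adjusted p = 0.000216), and under SR9009 was higher in KO-labelled cells at 245 ± 7.44 (0.51, adjusted p = 6.02e-05).

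Slc25a20, the carnitine-acylcarnitine carrier of fatty acid oxidation, rose from 19.3 ± 1.14 to 30.7 ± 1.44 FPKM (SD, n = 3) in KO-labelled cells in DMSO (log2 change 0.64, adjusted p = 0.000193) and stood at 20.4 and 30.1 under SR9009 (0.54, adjusted p = 0.000704). Got1, the cytosolic transaminase of the malate-aspartate shuttle, was 79.8 and 101 FPKM in DMSO (0.33, adjusted p = 0.00211) and 87.2 and 107 under SR9009 (0.29, adjusted p = 0.00494). Sdha, a subunit of succinate dehydrogenase, was higher in KO-labelled cells in DMSO (0.16, adjusted p = 0.0344) and under SR9009 (0.26, adjusted p = 0.00151), and Sdhb under SR9009 (0.25, adjusted p = 0.0316). Median centring ended the calls of Sdhb and of Sdha in DMSO (adjusted p = 0.201 and 0.177). Single calls near the threshold were those of Me1 (lower in KO-labelled DMSO, adjusted p = 0.0319), Glud1 (lower with SR9009 in controls, 0.0466) and Sdhd (higher with SR9009 in KO-labelled cells, 0.0473), and leaving out single libraries ended each of these and those of Sdhb and of Sdha in DMSO (up to 0.167). Mpc1 and Mpc2, the mitochondrial pyruvate carrier, were matched by identifier and were not called.

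Markers of other liver cells also differed between the groups, and their summed levels are given by group as the range over libraries. The 9 Kupffer cell markers, 7 of them tested, summed to 41.0 to 52.6, 44.1 to 47.6, 32.5 to 42.6 and 41.0 to 42.9 FPKM. Within that sum the markers moved apart: in KO-labelled cells in DMSO 3 of the 7 were lower and 1 higher, and under SR9009 1 was lower and 1 higher. For these and the other markers below, the share of all genes called for genotype was 20% in DMSO and 20.4% under SR9009. Marco had means of 9.52, 9.40, 1.66 and 1.85 FPKM (adjusted p = 1.21e-05 in DMSO and 1.67e-05 under SR9009), while Cd68, the largest part of the sum, had 18.3, 19.0, 23.7 and 28.0 (adjusted p = 0.0318 and 0.00332). Cd5l and C1qa were lower in KO-labelled DMSO (adjusted p = 0.0309 and 0.0392). The 6 endothelial markers, 3 tested, summed to 5.43 to 6.17, 5.85 to 6.95, 8.60 to 12.8 and 8.27 to 8.73, with 2 higher in KO-labelled DMSO (Stab1 and Lyve1). The 5 cholangiocyte markers, 2 tested, summed to 42.1 to 44.7, 39.4 to 61.7, 29.1 to 38.8 and 34.5 to 38.7, with Sox9 higher and Spp1 lower in KO-labelled cells in both treatments. The 6 stellate cell markers, 1 tested, summed to no more than 2.80 in any library. The 4 lymphocyte markers summed to 0.056 to 0.391 with Nkg7 at 0 in every library. Hepatocyte markers summed to 31182 to 31747, 27639 to 29626, 32798 to 35025 and 30687 to 31536. The sum was lower with SR9009 in both genotypes and higher in KO-labelled cells in both treatments. Of the 6 hepatocyte markers, all tested, 3 were lower with SR9009 in each genotype, where 8.24% and 9.87% of all genes were called. In KO-labelled cells 3 were higher in DMSO, and 3 were higher and 1 lower under SR9009. The part of any of these in the results was not tested.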

How the data were processed

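RNA-seq of mouse hepatocytes was analysed from 1 expression table of the whole series with 12 library columns. The authors deposited values per gene that were read here as FPKM; the file header names no unit, and the unit was inferred from the values. Per the submitters' processing notes, HISAT2 and StringTie were used with mm9, with versions, annotation and strand not given in the sources used here. Values were tested as log2(FPKM + 1) for genes at 1 FPKM or more in 3 or more libraries, with limma 3.58.1 (R 4.3.3), trend and robust variance, 4 group means from all 12 libraries and 5 comparisons, 1 of them the interaction of genotype and SR9009, with Benjamini-Hochberg adjustment at 0.05. The script was checked on simulated data. FPKM files hold no counts, so depth was read only as a relative value from the steps between low values, and no counting interval is given. No pair of libraries shared more than 0.0535% of values, so none was merged.

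The members and lists were chosen with earlier results of these data known. Values in every library are given for up to 16 members called in any comparison, by smallest adjusted p, and for the member of each role with the highest mean. Pathway genes are named with values where called, apart from 1 that is not reported here. Suclg2, Cs, Dlst and the other members given by group means are described to account for every member. Alternatives were other pseudocounts, filters, scalings and variance models, only the groups compared, the replicate number as a block, and each library left out. Leaving out the 2 shallowest libraries was chosen after seeing the data.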

Additional observations from a re-analysis of the deposited data

How the results depend on the processing

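The 37 calls of members in the 4 comparisons kept their direction under all 22 alternatives that gave a value, 17 kept their side of the threshold in all of them, and 20 lost it in at least 1. With the replicate number as a block, members called were 10 for genotype in DMSO, 5 for SR9009 in controls, 8 for SR9009 in KO-labelled cells, 8 for genotype under SR9009 and 0 for the interaction, and genes called were 2084, 793, 958, 2131 and 0. Deviations of libraries with the same number had correlations of -0.112 to 0.122 over 18 pairs, against -0.117 to 0.181 over 36 other pairs. Weak correlations cannot show whether libraries of the same number share a mouse or a cell preparation, and the labels do not say. Leaving out 1 library gave 7 to 12, 3 to 8, 5 to 10, 5 to 10 and 0 to 0 members, and 1607 to 2718, 530 to 919, 603 to 1438, 1651 to 2253 and 0 to 5 genes, in the same order. Where only the groups compared entered the fit, 376 genes were called for SR9009 in controls (924 with all 12 libraries and the settings of the report) and 1518 genes and 4 members for genotype under SR9009 (2283 and 10). Without a filter on low values that comparison called 5 members. Without the 2 shallowest libraries, members called were 9, 4, 7 and 7, and 609 genes were called for SR9009 in controls. The interaction called 3 genes with all 12 libraries and the settings of the report and 1 without a filter, with quantile normalization, with median centring, without trend or robust variance, and without the 2 shallowest libraries. The cause of these differences was not tested. Pdp1 and Pdp2 were not tested with a filter of at least 5 FPKM. With each gene above, lost calls are given for single libraries left out, and for other settings only where these are named. Precision is limited by 3 libraries a group, and depth only by relative values.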
